A study of Mus musculus with 151 samples.

Results

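The hair bundle of an inner hair cell (IHC) or outer hair cell (OHC) is a staircase of stereocilia, each a core of parallel actin filaments that is bundled by crosslinking proteins, capped at its tip, supplied by motor proteins and rooted in the cuticular plate, an actin mat under the cell surface. IHCs pass sound to the auditory nerve and OHCs amplify it, and the bundles of both types differ in shape although they draw on a common set of actin proteins. A group of 10 genes of that set was followed across 3 groups of single cells picked from the mouse cochlea. They were chosen by name: the actin bundlers *Espn*, *Fscn2*, *Pls1* and *Triobp*, the tip proteins *Eps8* and *Eps8l2*, the myosins *Myo3a* and *Myo6*, the actin-associated *Xirp2* and the bundle regulator *Grxcr1*. These are 10 of the 55291 genes in the count table, and all 10 had at least 5 counts in at least 10 cells of each comparison.

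All mice were C57BL/6 and carried vGlut3-P2A-iCreER/+, a tamoxifen-dependent Cre knocked in at the IHC gene *Slc17a8*, together with Ai9/+, a reporter that turns on Tdtomato where Cre has acted. The 55 P14_WT IHCs and 50 P30_WT IHCs had no further allele and were taken at postnatal day 14 and postnatal day 30, and the 46 P14_iOHCs (induced OHCs) were taken at postnatal day 14 from mice that were also Tbx2 flox/-. Wild-type and Tbx2 flox/- mice alike were given tamoxifen soon after birth. *Tbx2* encodes a transcription factor of the IHC lineage. Its minus allele is a germ-line deletion, and tamoxifen induced deletion of the floxed allele. Tdtomato+ cells were picked by hand, and iOHCs were picked for their smaller size, so larger Tdtomato+ cells of the same mice are not represented. The counts do not show whether a given cell lost its floxed allele.

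Each library holds 1 cell, and the mice behind the cells were not named, so each group was treated as 1 sample and no test between groups was made. Levels are given as CPM (the count per 1000000 counts of a cell's total), group levels as the same ratio of the summed counts and summed totals of its cells (pooled CPM), and differences as the log2 ratio of 2 pooled CPMs. Totals ran from 4326416 to 25035444 counts (median 15557333), with no cell between 10267217 and 11814928; the 51 cells under this gap are called the lower set of totals and the 100 above it the upper set, and ratios within each set are given beside the pooled ones where the 2 sets lie apart. At such depth the 95% Poisson intervals of the pooled levels are narrow and cover counting error only, since the reads carry no molecular identifiers; a count of 0 allows up to 0.120 to 0.693 CPM, depending on the cell. The cells' own spread is therefore given beside each ratio, with the share of pairs of cells, 1 from each group, in which one was above the other. In the wild-type groups the lower set of totals follows the label order, from P14_WT IHC-1 to P14_WT IHC-16 and from P30_WT IHC-1 to P30_WT IHC-23. In P14_iOHCs it reaches up to the label P14_iOHC-18, mixed with the upper set. A difference between the sets can thus not be told apart from one between earlier and later labels.

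The labels were checked with marker genes. All 5 IHC markers (*Slc17a8*, *Otof*, *Slc7a14*, *Tbx2*, *Calb2*) were lower in P14_iOHCs than in P14_WT IHCs by over 2-fold, and all 5 OHC markers (*Slc26a5*, *Ocm*, *Ikzf2*, *Lbh*, *Sri*) were higher by over 2-fold. *Tbx2* itself was at a pooled 66.5 CPM in P14_iOHCs against 247 CPM, and reads of exons outside the floxed one are part of that count. Of 15 supporting-cell markers, the 11 that passed the filter on counts were all over 2-fold higher in P14_iOHCs. The summed level of all 15 ranged from 0 to 10714 CPM (median 947) in P14_iOHCs and from 0 to 2334 CPM (median 2.86) in P14_WT IHCs, with *Prox1* at 0 in both groups.

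Of the 10 genes, *Myo3a* and *Xirp2* were far lower in P14_iOHCs than in P14_WT IHCs, by 10.8-fold and 5.04-fold, and *Eps8* was higher by 2.52-fold. The other 7 lay within 2-fold. From P14 to P30 in wild-type IHCs none of the 10 passed 2-fold, beside 9.96% of all genes higher and 10.9% lower. *Espn* had the largest share of cells on one side, with 45 of 50 P30_WT IHCs below the P14 median. The promoters of *Myo3a* and *Xirp2*, the 2 members with the largest ratios, are shown here with that of *Triobp*, the only member with a T-box half-site in its window.

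The windows run from 250 bases before to 50 bases after the annotated start and come from RefSeq, on GRCm38.p6, where 9 of the 10 members had an entry (12 windows, some genes having several starts) and *Eps8* had none. Capitals mark matches, on either strand, to the T-box half-site AGGTGT or to the E-box CANNTG, the core bound by basic helix-loop-helix factors such as those that specify hair cells. Matches to the TATA box, searched as TATAAA, are marked in the same way. *Myo3a* lies at chr2:22227253-22227552 (plus strand), *Xirp2* at chr2:67445752-67446051 (plus strand) and the upstream start of *Triobp* at chr15:78947474-78947773 (plus strand).
Myo3a: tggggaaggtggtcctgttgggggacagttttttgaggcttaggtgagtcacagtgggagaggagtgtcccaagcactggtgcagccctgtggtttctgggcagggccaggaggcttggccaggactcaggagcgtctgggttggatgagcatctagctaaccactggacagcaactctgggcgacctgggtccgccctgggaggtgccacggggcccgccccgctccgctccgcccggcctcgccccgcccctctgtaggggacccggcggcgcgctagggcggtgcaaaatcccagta
Xirp2: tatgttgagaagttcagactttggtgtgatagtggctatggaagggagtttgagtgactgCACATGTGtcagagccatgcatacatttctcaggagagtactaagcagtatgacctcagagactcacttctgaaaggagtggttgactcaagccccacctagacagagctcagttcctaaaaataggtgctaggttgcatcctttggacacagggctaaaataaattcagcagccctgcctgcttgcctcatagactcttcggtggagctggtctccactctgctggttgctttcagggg
Triobp: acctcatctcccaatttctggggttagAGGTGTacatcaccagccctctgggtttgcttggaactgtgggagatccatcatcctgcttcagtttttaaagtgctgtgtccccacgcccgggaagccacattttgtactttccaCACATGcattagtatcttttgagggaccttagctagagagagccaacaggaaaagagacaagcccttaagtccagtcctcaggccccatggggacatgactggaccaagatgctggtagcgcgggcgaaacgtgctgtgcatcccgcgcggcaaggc

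The *Myo3a* window held none of the 3 motifs and was 66.3% G or C, against a median of 52.7% over the 32851 windows of the table. The *Xirp2* window was 48.3% G or C and held 2 E-boxes that overlap, at 190 and 188 bases before the start site, printed as 1 run of capitals. The *Triobp* window held the half-site 223 bases and an E-box 107 bases before the start. Of all windows, 13.7% held the half-site, 72.3% an E-box and 13.6% a TATA box, and of the 12 windows of the members 1, 8 and 1 did. A match in these letters is a description of the window and no evidence of binding.

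**Figure D1:**
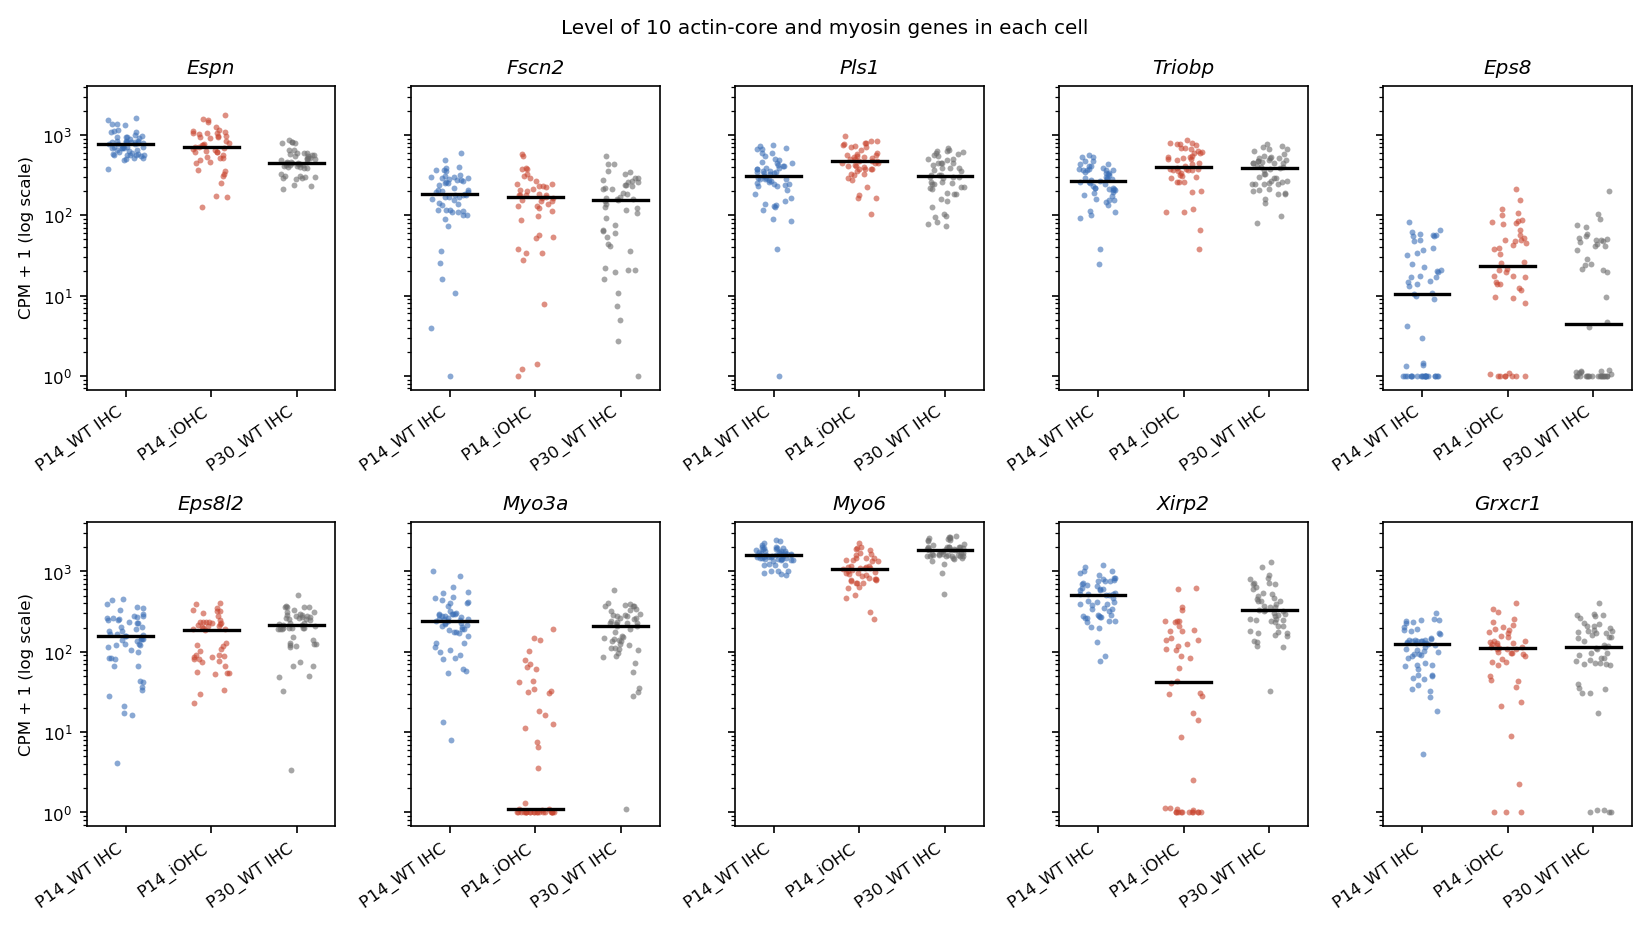
CPM + 1 (log scale) of each gene in each of the 55 P14_WT IHCs, 46 P14_iOHCs and 50 P30_WT IHCs, with a bar at the median. *Myo3a* and *Xirp2* are spread down to 0 in P14_iOHCs, where their medians are 0.107 and 41.5 CPM, while *Espn* and *Myo6* stay above 100 CPM in every cell of every group.

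*Myo3a* (ENSMUSG00000025716.14, chromosome 2, 22227503 to 22618252, plus strand) encodes a class III myosin that carries espins toward stereocilia tips. It was at 6.92, 242 and 1010 CPM in the lowest, median and highest P14_WT IHC, at 0, 0.107 and 190 CPM in P14_iOHCs, and at 0.106, 206 and 594 CPM in P30_WT IHCs. Every P14_iOHC was below the P14_WT median, 28 of the 46 were below the lowest P14_WT IHC, and 36 of the 55 P14_WT IHCs were above the highest P14_iOHC. Pooled levels were 259 CPM (95% Poisson interval 258 to 260) in P14_WT IHCs and 24 CPM (23.6 to 24.4) in P14_iOHCs, a log2 ratio of -3.43, and a P14_iOHC exceeded a P14_WT IHC in 3.60% of pairs of cells. Within the sets of totals the log2 ratio was -3.49 (lower) and -3.41 (upper).

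The low pooled *Myo3a* level of P14_iOHCs was a mixture of cells with and without reads. All 55 P14_WT IHCs (95% Wilson interval 93.5% to 100%) and all 50 P30_WT IHCs had at least 1 count, against 25 of 46 P14_iOHCs (54.3%, 40.2% to 67.8%). Wilson intervals take the cells of a group as independent draws and do not cover differences between mice. With every cell thinned to 4326416 counts, the lowest total, a count remained in 55 of 55 P14_WT IHCs, 49 of 50 P30_WT IHCs and 23 of 46 P14_iOHCs. In the P14_iOHCs, 18 cells reached 10 CPM, 8 reached 50 CPM and 4 reached 100 CPM, whereas 53 of 55 P14_WT IHCs reached 50 CPM.

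*Xirp2* (ENSMUSG00000027022.13, chromosome 2, 67446002 to 67526614, plus strand) encodes a Xin repeat protein of the stereocilia and cuticular plate that is needed to keep bundles intact. Its lowest, median and highest levels were 74.9, 503 and 1198 CPM in P14_WT IHCs, 0, 41.5 and 616 CPM in P14_iOHCs, and 31.9, 327 and 1306 CPM in P30_WT IHCs. The P14 groups overlapped more than for *Myo3a*: 25 of 46 P14_iOHCs were below every P14_WT IHC, 44 were below the P14_WT median, and 18 of 55 P14_WT IHCs were above every P14_iOHC. The pooled level was 530 CPM in P14_WT IHCs and 105 CPM in P14_iOHCs, a log2 ratio of -2.33, and a P14_iOHC was the higher cell in 6.72% of pairs. The ratio was -1.69 in the lower set of totals, which is under 4-fold, and -2.46 in the upper set.

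No *Xirp2* count was found in 11 of the 46 P14_iOHCs and 35 had at least 1 (34 after thinning to 4326416 counts), while every IHC of both ages had a count. Cells that lacked *Myo3a* did not all lack *Xirp2*: 21 P14_iOHCs had counts of both genes, 14 of *Xirp2* only, 4 of *Myo3a* only and 7 of neither. At a limit of 10 CPM these numbers were 12, 17, 6 and 11. Over the 46 cells, which share a group and differ in depth, Pearson's r between the 2 genes on the log2(CPM + 1) scale was 0.12 and Spearman's rho was 0.16.

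The 2 genes were also set beside the IHC gene *Slc17a8*, the vesicular glutamate transporter, in the same 46 P14_iOHCs. Pearson's r of *Myo3a* with *Slc17a8* was 0.30 (Spearman's rho 0.34), with r = 0.75 among 12 cells with lower totals and 0.09 among the other 34. The r of *Xirp2* with *Slc17a8* was 0.26 (rho 0.31), and 0.19 without the 2 cells farthest from the *Slc17a8* median. The 4 P14_iOHCs that reached 100 CPM of *Myo3a*, at 190, 147, 138 and 100 CPM, had *Slc17a8* at 216, 722, 935 and 0 CPM, so high *Myo3a* occurred with and without *Slc17a8* reads.

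*Myo6* (ENSMUSG00000033577.18, chromosome 9, 80165031 to 80311729, plus strand) encodes a minus-end directed myosin that anchors stereocilia at their base and is a general hair cell marker. It ran from 890 to 2497 CPM (median 1590) in P14_WT IHCs, from 258 to 2289 CPM (median 1061) in P14_iOHCs and from 521 to 2739 CPM (median 1849) in P30_WT IHCs. No cell lacked it, yet 16 of 46 P14_iOHCs were below the lowest P14_WT IHC and 38 were below the P14_WT median. Its pooled log2 ratio in P14_iOHCs was -0.49 (1109 against 1553 CPM), within 2-fold, and a P14_iOHC was the higher cell in 20.4% of pairs. The ratio was -0.69 with the lower totals and -0.45 with the upper.

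Among the bundlers, *Espn* (ENSMUSG00000028943.18, chromosome 4, 152120331 to 152152371, minus strand) encodes espin, which crosslinks and lengthens the parallel actin filaments. It was at 372, 773 and 1641 CPM in the lowest, median and highest P14_WT IHC and at 126, 708 and 1772 CPM in P14_iOHCs. The range of the P14_iOHCs was wider at both ends, with 8 cells below and 1 cell above all P14_WT IHCs. The pooled log2 ratio was -0.14, -0.19 in the upper set of totals and 0.13 in the lower set, so its direction was not settled.

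*Triobp* (ENSMUSG00000033088.19, chromosome 15, 78947724 to 79005869, plus strand) encodes the protein that bundles the rootlets by which stereocilia stand in the cuticular plate. The lowest, median and highest cells had 24, 265 and 568 CPM in P14_WT IHCs, 37.6, 397 and 877 CPM in P14_iOHCs, and 79.2, 382 and 761 CPM in P30_WT IHCs. Above every P14_WT IHC were 13 of 46 P14_iOHCs, and 36 were above the P14_WT median. The pooled log2 ratio was 0.59 in P14_iOHCs (0.81 in the lower and 0.54 in the upper set of totals), with the P14_iOHC higher in 73.7% of pairs.

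*Pls1* (ENSMUSG00000049493.13, chromosome 9, 95752642 to 95845311, minus strand) encodes plastin 1, also called fimbrin, an abundant actin crosslinker of the stereocilia. It was at 0, 304 and 744 CPM in P14_WT IHCs and at 102, 470 and 978 CPM in P14_iOHCs. The cells of the 2 groups overlapped, with 6 P14_iOHCs above all P14_WT IHCs and 39 of 46 above their median. The pooled log2 ratio was 0.48 (0.90 in the lower and 0.41 in the upper set of totals), and a P14_iOHC was higher in 73.2% of pairs.

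*Fscn2* (ENSMUSG00000025380.2, chromosome 11, 120361534 to 120368168, plus strand) encodes a fascin, a crosslinker that maintains mature stereocilia. Its levels of 0, 185 and 591 CPM in P14_WT IHCs, 0, 167 and 583 CPM in P14_iOHCs and 0, 152 and 546 CPM in P30_WT IHCs covered nearly the same range. 1 cell of each group had no count, and the pooled log2 ratio in P14_iOHCs was -0.22, well inside the cells' spread (SD 122 CPM in P14_WT IHCs and 132 CPM in P14_iOHCs, n = 55 and 46 cells).

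*Eps8* (ENSMUSG00000015766.14, chromosome 6, 137477245 to 137654876, minus strand) encodes a capping and bundling protein delivered to the tips of the tallest stereocilia, where it is needed for their elongation. It was at 0, 9.50 and 80.6 CPM in the lowest, median and highest P14_WT IHC, at 0, 22.6 and 214 CPM in P14_iOHCs and at 0, 3.41 and 202 CPM in P30_WT IHCs. Of 46 P14_iOHCs, 8 were above every P14_WT IHC and 34 were above their median, while both groups held cells without a count. The pooled level was 17.2 CPM (16.9 to 17.5) in P14_WT IHCs and 43.5 CPM (43 to 44) in P14_iOHCs, a log2 ratio of 1.34. It was 1.41 in the upper set of totals but 0.48 in the lower set, under 2-fold, and the P14_iOHC was higher in 67.0% of all pairs.

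The share of cells with an *Eps8* count was 63.6% (95% Wilson interval 50.4% to 75.1%) in P14_WT IHCs, 84.8% (71.8% to 92.4%) in P14_iOHCs and 66.0% (52.2% to 77.6%) in P30_WT IHCs. After thinning every cell to 4326416 counts these shares were 63.6%, 82.6% and 56.0%. No P14_WT IHC reached 100 CPM, whereas 5 P14_iOHCs and 2 P30_WT IHCs did.

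*Eps8l2* (ENSMUSG00000025504.14, chromosome 7, 141338880 to 141363020, plus strand) encodes a relative of EPS8 found at the tips of shorter stereocilia. It was at 3.07, 155 and 454 CPM in the lowest, median and highest P14_WT IHC and at 21.8, 187 and 407 CPM in P14_iOHCs, and the ranges nearly coincided. The pooled log2 ratio was -0.02 and the P14_iOHC was higher in 49.8% of pairs. The antisense gene *B230206H07Rik* overlaps 32.2% of the *Eps8l2* exon bases, and since it is not given whether the counts used strand, reads of both cannot be told apart there; the antisense gene had 0.478, 0.692 and 1.87 CPM in P14_WT IHCs, P14_iOHCs and P30_WT IHCs.

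*Grxcr1* (ENSMUSG00000068082.12, chromosome 5, 68031835 to 68166398, plus strand) encodes a glutaredoxin-domain protein that controls actin organization and the width of stereocilia. It was at 4.31, 125 and 302 CPM in P14_WT IHCs, 0, 110 and 400 CPM in P14_iOHCs and 0, 113 and 409 CPM in P30_WT IHCs, with 3 cells without a count in each of the last 2 groups. The P14_iOHCs reached past the P14_WT IHCs on both sides, 4 below and 3 above. The pooled log2 ratio was -0.18, with 0.58 in the lower and -0.30 in the upper set of totals, and its direction was not settled.

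The counts of members past a fold were read against all genes. In the P14 groups 13673 genes passed the filter on counts, of which 19% were over 2-fold higher and 13.0% over 2-fold lower in P14_iOHCs, and 1 and 2 of the 10 members were. At 4-fold, 8.86% of genes were higher and 5.16% lower, and 0 and 2 members were. A gene was higher in at least 90% of pairs of cells in 0.585% of cases and lower in 0.746%, and 0 and 2 members were, the 2 being *Myo3a* and *Xirp2*. The median log2 ratio of the 10 was -0.16, beside 0.09 over all 13673 genes.

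**Figure D2:**
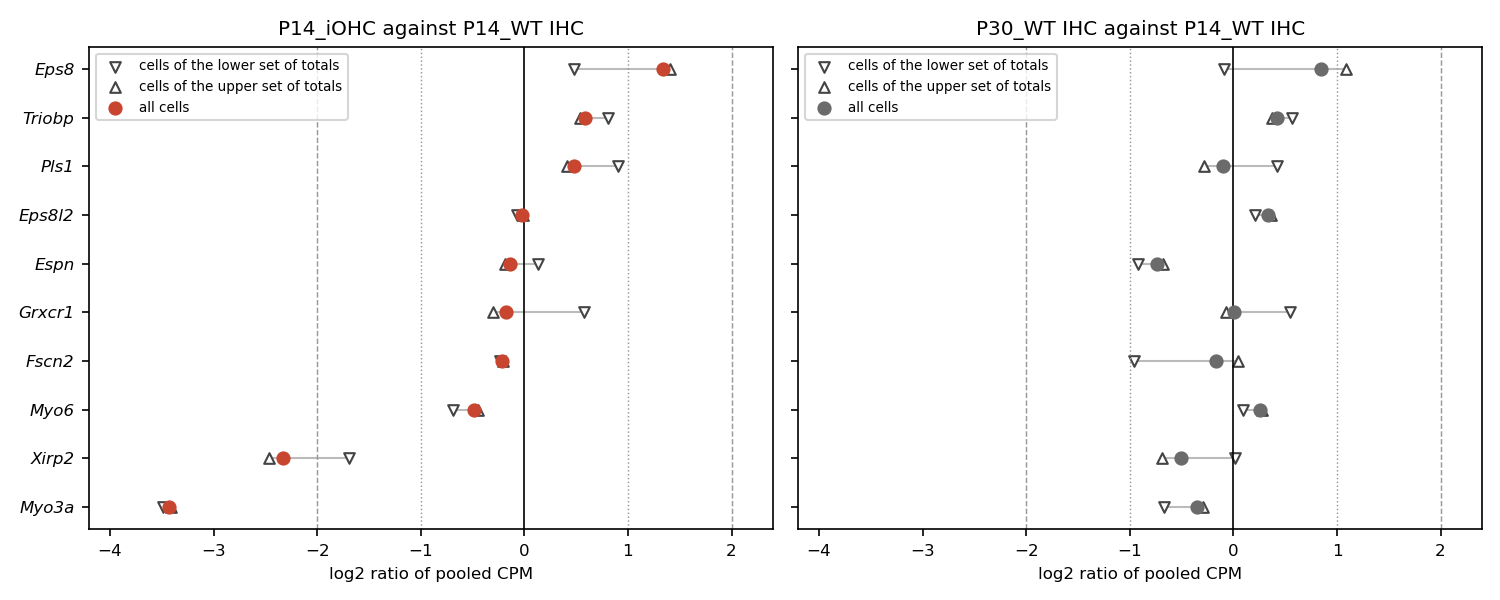
Log2 ratio of pooled CPM of each gene in P14_iOHCs (left) and P30_WT IHCs (right) against the same P14_WT IHCs, with the ratios in the lower and upper set of totals as open triangles and lines at 2-fold (dotted) and 4-fold (dashed). *Myo3a* at -3.43 and *Xirp2* at -2.33 lie past 4-fold on the left, and no filled point on the right lies past 2-fold.

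The second comparison, between P30_WT and P14_WT IHCs, uses the same P14_WT IHCs as the first, so the 2 sets of ratios are not independent. Of 12946 genes that passed the filter there, 9.96% were over 2-fold higher and 10.9% over 2-fold lower at P30, 2.71% over 4-fold higher and 3.29% over 4-fold lower, and none of the 10 members was among them. Only 0.0232% of genes were higher and 0.193% lower in at least 90% of pairs, again with no member. The median log2 ratio was -0.04 for the 10 genes and -0.01 for all.

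*Espn* was the member with the clearest shift between the ages. The P30_WT IHCs had 210, 448 and 867 CPM in the lowest, median and highest cell, 11 of 50 were below every P14_WT IHC, and 16 of 55 P14_WT IHCs were above every P30_WT IHC. The pooled level was 484 CPM at P30 against 810 CPM at P14, a log2 ratio of -0.74 (-0.92 in the lower and -0.68 in the upper set of totals), with the P30_WT IHC higher in 11.6% of pairs. Its cells had a similar relative spread at both ages, with an SD of 158 CPM around a mean of 475 CPM at P30 and of 270 CPM around 808 CPM at P14 (n = 50 and 55 cells).

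Other members moved less with age. *Triobp* had a log2 ratio of 0.42 and was higher at P30 in 67.4% of pairs, and *Myo6* had 0.26 and 69.3%, with a ratio of 0.09 in the lower and 0.28 in the upper set of totals. *Eps8l2* was at 2.33, 213 and 502 CPM in the lowest, median and highest P30_WT IHC, with a log2 ratio of 0.33. *Xirp2* and *Myo3a*, so low in P14_iOHCs, had ratios of -0.51 and -0.35 at P30, inside the cells' spread. That of *Xirp2* was 0.02 in the lower and -0.69 in the upper set of totals, and that of *Myo3a* -0.67 and -0.29.

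*Eps8* had a pooled log2 ratio of 0.85 at P30, but it was -0.09 in the lower and 1.09 in the upper set of totals, and the P30 median cell was below the P14 median cell. In P30_WT IHCs its level was higher in cells with higher totals, with r = 0.53 (rho 0.52) against the log10 total over 50 cells. Among the 23 cells with lower totals r was 0.35, and among the other 27 it was 0.24. The sets of totals follow the label order in this group, so depth cannot be told apart from label order. The part of either in the pooled ratio of *Eps8* was not tested. For *Fscn2*, *Pls1* and *Grxcr1* the ratios were -0.17, -0.10 and 0.01, and each changed sign between the sets of totals: *Fscn2* from -0.96 in the lower to 0.04 in the upper set, *Pls1* from 0.42 to -0.28, and *Grxcr1* from 0.55 to -0.07.

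Set in order of pooled CPM over the 3 groups, *Myo3a* and *Xirp2* were highest in P14_WT IHCs, then in P30_WT IHCs, then in P14_iOHCs. For *Myo3a* the first step separated 58.5% of pairs and the second 94.9%, and for *Xirp2* 63.6% and 88.7%. *Espn* ran from P14_WT IHCs to P14_iOHCs to P30_WT IHCs, with 54.9% and 75.7% of pairs in that order. *Myo6* ran from P30_WT IHCs to P14_WT IHCs to P14_iOHCs, with 69.3% and 79.6%. *Triobp* and *Eps8* ran from P14_iOHCs to P30_WT IHCs to P14_WT IHCs, with 58.3% and 67.4% of pairs for *Triobp* and 62.8% and 52.8% for *Eps8*, and *Pls1* from P14_iOHCs to P14_WT IHCs to P30_WT IHCs, with 73.2% and 49.3%. The steps of *Fscn2* (60.5% and 46.2%), *Eps8l2* (62.7% and 50.2%) and *Grxcr1* (50.3% and 53.2%) were small, and the cells of those neighbouring groups overlapped over most of their range.

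Levels of different genes were compared per length, as TPM (transcripts per 1000000), computed from the counts and the summed exon length of each gene, which takes all isoforms of a gene as 1 length. In P14_WT IHCs the mean TPM fell from *Myo6* (320 ± 74.3, SD, n = 55 cells) over *Grxcr1* (277 ± 156), *Espn* (237 ± 79.9), *Fscn2* (235 ± 147) and *Pls1* (210 ± 113) to *Xirp2* (106 ± 57.1). *Myo3a* (82.1 ± 56.1), *Eps8l2* (78.2 ± 50.5), *Triobp* (54.9 ± 25.3) and *Eps8* (3.48 ± 4.37) followed. The first 5 overlapped within 1 SD, and a neighbour was out of order in many cells: *Espn* was above *Fscn2* in 30 of 55 cells. *Pls1* was above *Xirp2* in 44 and *Triobp* above *Eps8* in 54 of 55.

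In P14_iOHCs *Pls1* led at 276 ± 111 TPM (SD, n = 46 cells), before *Grxcr1* at 249 ± 190, *Espn* at 203 ± 104 and *Myo6* at 203 ± 87.7. *Myo3a* was the lowest of the 10 at 6.90 ± 12.5 TPM, next to *Eps8* at 7.23 ± 8.14, which was above it in 29 of 46 cells, and *Xirp2* stood above them at 20.2 ± 29. In P30_WT IHCs *Myo6* (355 ± 90.1, SD, n = 50 cells), *Grxcr1* (278 ± 203) and *Pls1* (201 ± 104) led, *Espn* followed *Fscn2* (177 ± 144) at 133 ± 45.8, and *Eps8* was again last at 4.79 ± 7.13.

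**Figure D3:**
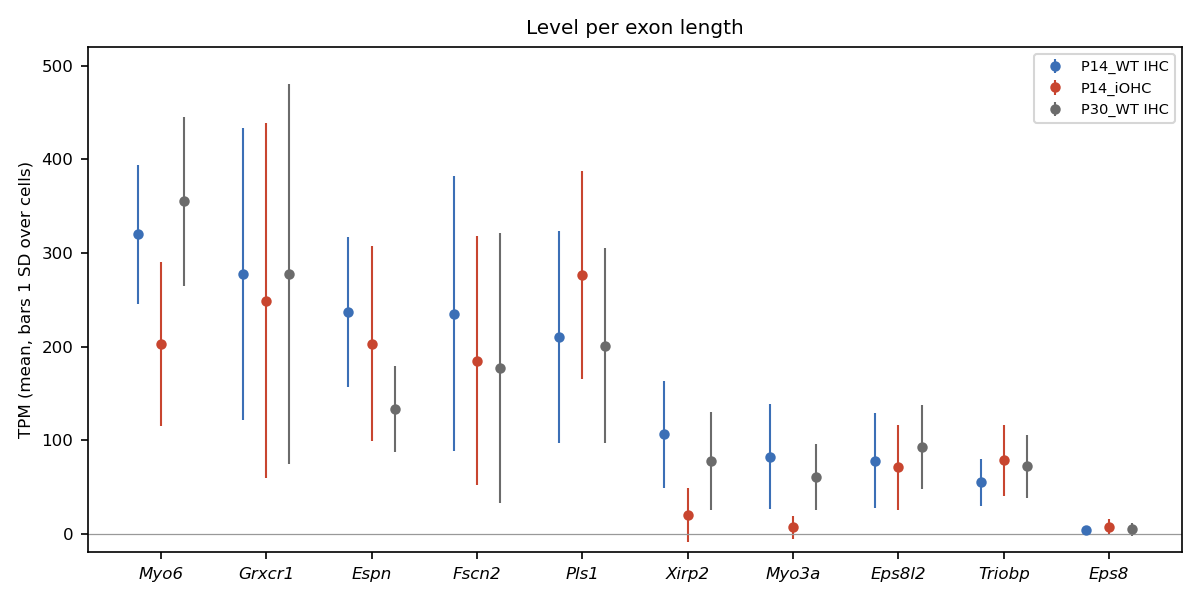
Mean TPM of each gene in the 3 groups, with bars of 1 SD over 55, 46 and 50 cells, ordered by the level in P14_WT IHCs. *Myo3a* and *Xirp2* drop to 6.90 and 20.2 in P14_iOHCs, *Espn* to 133 in P30_WT IHCs, and the mean of *Eps8* stays below 10 in every group.

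Some members that were within 2-fold as a group, *Espn*, *Myo6*, *Triobp* and *Eps8l2*, varied from one P14_iOHC to the next with the supporting-cell markers. The score of these markers, their mean log2(CPM + 1) in a cell, averaged 2.82 in the 46 P14_iOHCs (SD 2.02) and 0.786 in the 55 P14_WT IHCs (SD 1.15), and 14 P14_iOHCs were above every P14_WT IHC. Over the 46 P14_iOHCs, on the log2(CPM + 1) scale, Pearson's r with the score was -0.73 for *Espn* (Spearman's rho -0.71), -0.59 for *Myo6* (rho -0.58), -0.53 for *Triobp* (rho -0.54) and -0.49 for *Eps8l2* (rho -0.51). In the lower and upper sets of totals the r was -0.83 and -0.69 for *Espn*, -0.51 and -0.62 for *Myo6*, -0.41 and -0.55 for *Triobp*, and -0.33 and -0.54 for *Eps8l2*. Without the 2 cells farthest from the median score the 4 values were -0.69, -0.52, -0.49 and -0.48.

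The same r was -0.02 for *Myo3a*, 0.12 for *Xirp2*, 0.08 for *Fscn2*, -0.18 for *Pls1* and -0.14 for *Grxcr1*, and 0.32 for *Eps8*. In the 55 P14_WT IHCs, where few cells had a high score, it was -0.10 for *Espn*, -0.26 for *Myo6*, -0.17 for *Triobp* and -0.12 for *Eps8l2*. All levels of a cell share its total, so reads of one kind lower the CPM of the rest. The part of this in the r values was not tested.

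Without the 14 high-score P14_iOHCs the log2 ratio against P14_WT IHCs was 0.15 for *Espn*, -0.28 for *Myo6*, 0.81 for *Triobp*, 0.24 for *Eps8l2*, 0.61 for *Pls1* and 0.06 for *Grxcr1*. *Myo3a* and *Xirp2* stood at -3.07 and -2.09 and *Eps8* at 1.22, so these 3 were called the same way without those cells. P14_iOHCs with scores below the 4.06 of the highest P14_WT IHC were still included. The part of supporting-cell RNA in the levels of the members, these 3 included, was not tested.

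**Figure D4:**
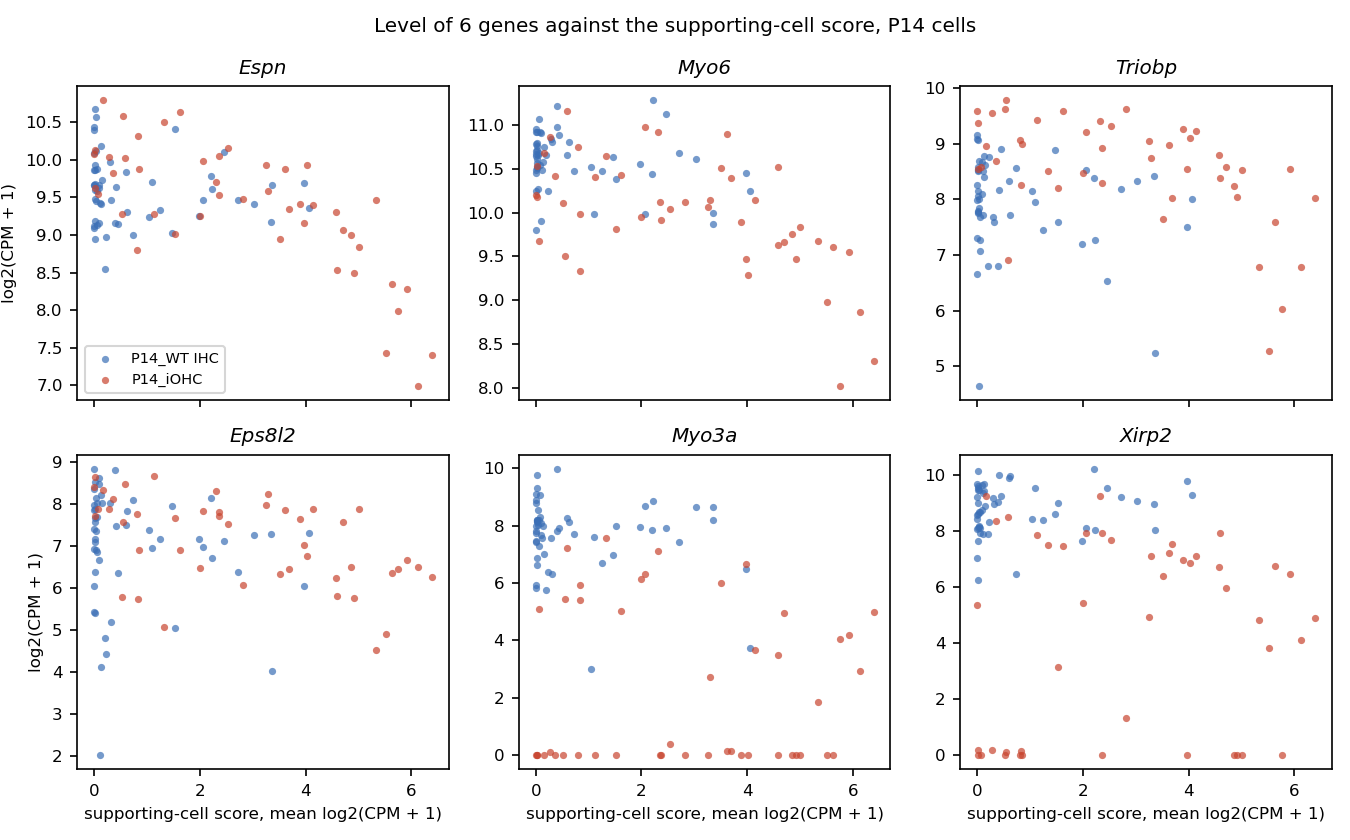
Log2(CPM + 1) of 6 genes (y) against the supporting-cell score (x) in each P14_WT IHC and P14_iOHC. *Espn* and *Myo6* are lower in P14_iOHCs of higher score (r = -0.73 and -0.59), while the P14_iOHCs without *Myo3a* or *Xirp2* counts are found at low and high scores alike (r = -0.02 and 0.12).

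The members that shared this relation also varied together. In P14_iOHCs r was 0.65 between *Espn* and *Myo6* (rho 0.52), 0.63 between *Espn* and *Triobp* (rho 0.55) and 0.50 between *Eps8l2* and *Triobp* (rho 0.46), whereas in P14_WT IHCs the 3 pairs had 0.15, -0.08 and 0.05. The lowest pair in P14_iOHCs was *Pls1* and *Myo3a* at -0.43, with -0.17 in the lower and -0.55 in the upper set of totals. Over all 45 pairs of members the median r was 0.10 in P14_WT IHCs, 0.13 in P14_iOHCs and 0.07 in P30_WT IHCs, so the 10 genes did not vary as 1 group. The highest pair in P30_WT IHCs, *Eps8l2* and *Myo3a* at 0.71 (rho 0.39), had 0.28 without the 2 cells farthest from the *Eps8l2* median.

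With *Slc26a5*, which encodes prestin, the motor protein of OHCs, r over the 46 P14_iOHCs was highest for *Triobp* at 0.58 (rho 0.43), then *Espn* at 0.45 (rho 0.37), *Pls1* at 0.41 (rho 0.28), *Eps8l2* at 0.36 (rho 0.37), *Fscn2* at 0.30 (rho 0.27), *Myo6* at 0.22 and *Grxcr1* at 0.14. It was -0.03 for *Eps8*, -0.12 for *Xirp2* and -0.29 for *Myo3a*. The relation was not the same at both depths: among the 12 cells with lower totals r was -0.05 for *Triobp*, 0.32 for *Espn*, 0.04 for *Pls1* and -0.07 for *Eps8l2*, and among the other 34 it was 0.63, 0.47, 0.43 and 0.43. With the supporting-cell score, r over the 46 cells was -0.53 for *Triobp*, -0.73 for *Espn*, -0.18 for *Pls1* and -0.49 for *Eps8l2*. The part of that score in the relations with *Slc26a5* was not tested.

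The genes around these members were taken from a list of 34 other hair bundle genes. In P14_iOHCs 33 passed the filter, 7 were over 2-fold higher, 5 over 2-fold lower, and the median log2 ratio was -0.01. These shares are near the 19% and 13.0% of all tested genes, so the values are given gene by gene and nothing is read from the counts. Both class III myosin genes were low: *Myo3b*, the paralogue of *Myo3a*, was at a pooled 10.7 CPM in P14_WT IHCs, with counts in 20 of 55 cells, and at 0.762 CPM in P14_iOHCs, with counts in 5 of 46. *Espnl*, which encodes an espin relative carried by class III myosins, went from 11.8 CPM (25 of 55 cells) to 0.269 CPM (4 of 46 cells).

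Among tip genes, *Whrn*, which encodes the scaffold whirlin that brings EPS8 to the tip with myosin 15, was at a pooled 226 CPM in P14_WT IHCs and 14.9 CPM in P14_iOHCs (log2 ratio -3.92), and *Gpsm2*, its partner there, at 263 and 117 CPM (-1.16). *Ptprq*, of the shaft connectors at the stereocilia base, was at 355 and 106 CPM (-1.74). Higher in P14_iOHCs were the filament-end capper *Tmod1* (18.7 against 159 CPM), the cuticular plate gene *Lmo7* (776 against 1708 CPM), the severing and capping protein *Gsn*, the bundler *Pls3* and the myosins *Myo1h*, *Myo10* and *Myh9*, at log2 ratios of 3.09, 1.14, 2.38, 3.01, 1.66, 2.61 and 2.21.

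These genes were spread unevenly over cells. *Pls3* had counts in 4 of 55 P14_WT IHCs and 16 of 46 P14_iOHCs, and *Gsn* in 25 of 55 and 44 of 46. *Gsn* had a median of 0 CPM and a highest cell of 3446 CPM in P14_WT IHCs, against a median of 169 and a highest cell of 12091 CPM in P14_iOHCs. *Lmo7* was broader, at 235, 749 and 2084 CPM in the lowest, median and highest P14_WT IHC and 168, 1682 and 5490 CPM in P14_iOHCs. The supporting-cell score was also higher in P14_iOHCs, with a mean of 2.82 against 0.786 in P14_WT IHCs. The part of supporting-cell RNA in the levels of these higher genes was not tested.

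**Figure D5:**
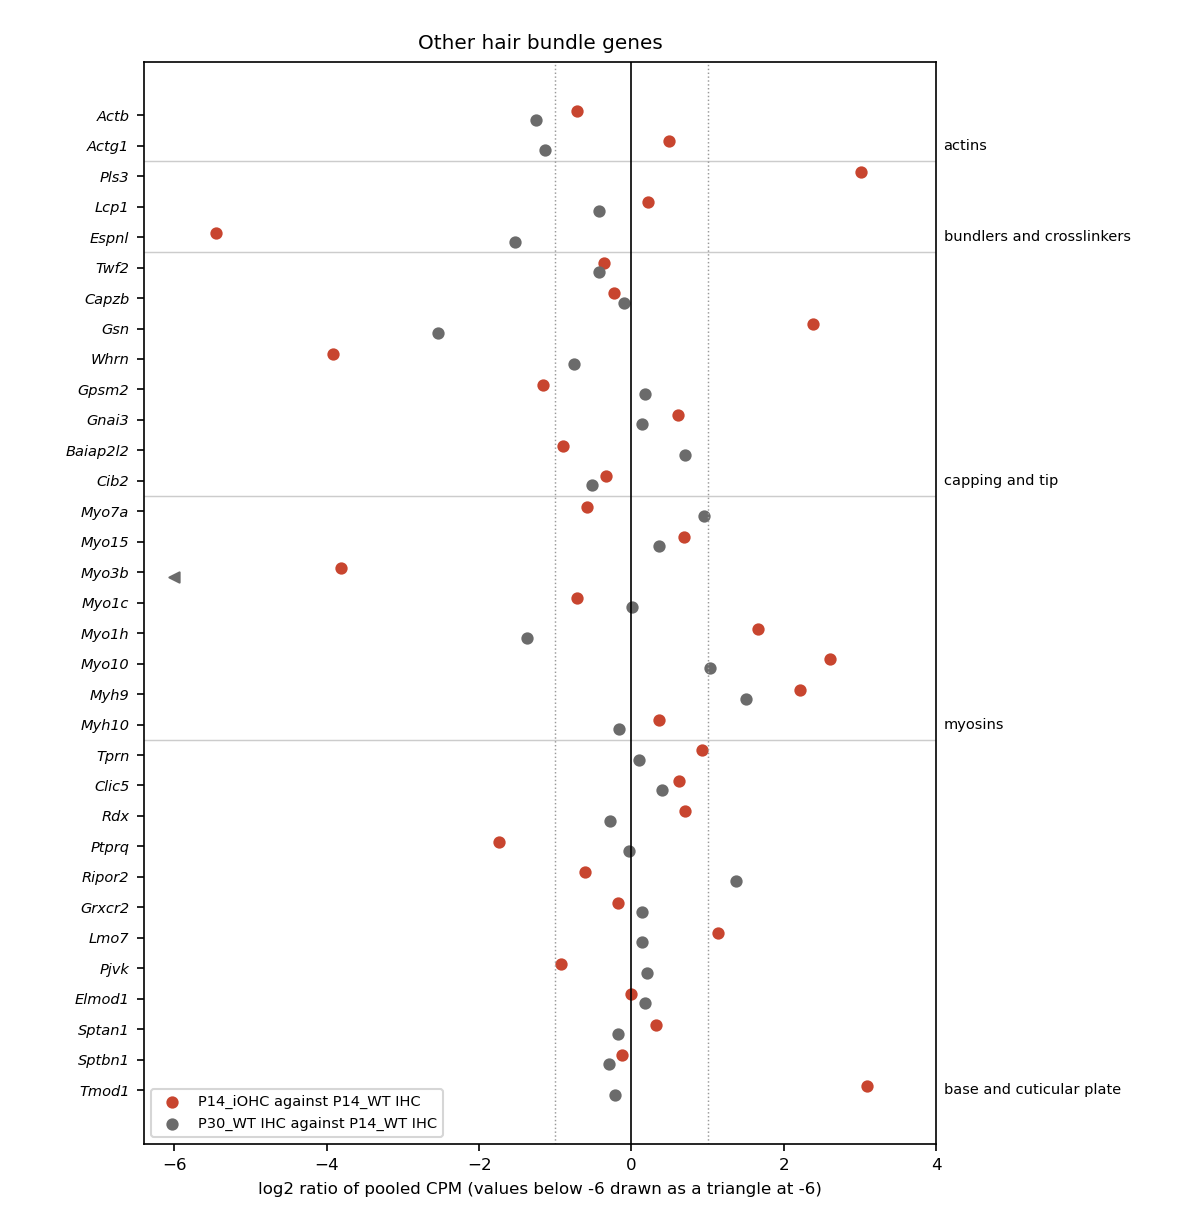
Log2 ratio of pooled CPM of the other hair bundle genes that passed the filter, by role, in P14_iOHCs (red) and P30_WT IHCs (grey) against P14_WT IHCs, with dotted lines at 2-fold. *Espnl*, *Whrn* and *Myo3b* lie past 4-fold lower in P14_iOHCs. With this scaling by totals, both actin genes lie just past 2-fold lower in P30_WT IHCs.

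At P30, 32 of the 34 passed the filter, 3 were over 2-fold higher (*Myo10*, *Myh9*, *Ripor2*) and 6 over 2-fold lower, with a median log2 ratio of -0.06, beside 9.96% and 10.9% of all genes tested at that age. The genes of the 2 cytoplasmic actins that build the core were both lower, *Actb* at 241 against 574 CPM (log2 ratio -1.25) and *Actg1* at 283 against 622 CPM (-1.14), beside the -0.74 of *Espn*. *Actb* was at 17.6, 214 and 888 CPM in the lowest, median and highest P30_WT IHC and 37.6, 446 and 1242 CPM at P14, so the ages overlapped. Both actin ratios lie close to the 2-fold line and rest on scaling by totals. Scaling by DESeq2 size factors moved the median log2 ratio of all genes at P30 from -0.01 to 0.26. Whether the actin genes stayed past 2-fold lower there was not checked gene by gene. The other 4 were *Espnl* (-1.53), *Gsn* (-2.54), *Myo1h* (-1.37) and *Myo3b*, which had 2 counts in all P30_WT IHCs together (log2 ratio -11.78, 95% Poisson interval -14.82 to -9.92).

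The paralogues of the members were looked at for their own levels. *Fscn1* had no count in any P14_WT IHC and counts in 2 P14_iOHCs and 6 P30_WT IHCs, *Eps8l3* had none in any cell, and *Xirp1* had none in P14_WT IHCs, 1 count in P14_iOHCs and 437 counts in P30_WT IHCs, those in 3 cells. *Lcp1*, which encodes plastin 2, was at 356, 413 and 267 CPM in P14_WT IHCs, P14_iOHCs and P30_WT IHCs, and *Grxcr2*, the relative of *Grxcr1*, was at 812, 718 and 894 CPM. *Eps8l1* had counts in 10 of 55, 15 of 46 and 16 of 50 cells.

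Genes whose levels over cells were most like those of each member were sought among the 3686 or 3687 genes with a count in at least 80% of the cells of every group, by the mean of Pearson's r within the 3 groups. The closest were *Acbd7* for *Myo6* and *Copz1* for *Fscn2* (mean r 0.48 each), *Ttll3* for *Xirp2* (0.45), *Chst2* for *Pls1* and *Rogdi* for *Grxcr1* (0.44 each). For *Espn* and *Triobp* they were *Camk2b* and *Wbp1* (0.42 each), for *Eps8l2* *Mlxip* (0.41), for *Myo3a* *Pdcd6* (0.37) and for *Eps8* *Dcun1d1* (0.33). *Myo6* and *Acbd7* had r = 0.35 in 55 P14_WT IHCs, 0.72 in 46 P14_iOHCs and 0.38 in 50 P30_WT IHCs. The cells of a group share depth and picking, and the highest of so many values is high by the search itself.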

How the data were processed

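Single Tdtomato+ cells were picked, their cDNA was amplified with a full-length kit (Smart-Seq HT), and paired reads were sequenced. The authors aligned the reads to GRCm38 (mm10) with HISAT2 2.1.0 and deposited read counts per gene from HTSeq 0.10.0, whole numbers without normalization for 55291 gene symbols; the submitters' processing notes also name Trimmomatic 0.39, FastQC 0.11.9 and StringTie 1.3.5. The annotation release, strand setting and treatment of multiply aligned reads are not given in the sources used here. Counts per gene do not separate isoforms, which matters for *Espn*, *Xirp2* and *Triobp*. P30_WT OHCs of another study were not analysed here.

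All 151 cells were assigned by their labels, and no 2 cells held identical counts. A group was taken as 1 sample, since cells are not replicates of a mouse, and the number of mice per group is not given in the sources used here. Doublet calling does not apply to picked cells. Pooled CPM had exact Poisson intervals, which cover counting error only, and shares of cells had Wilson intervals, both at 95%. The Wilson intervals take the cells of a group as independent draws, do not cover differences between mice and are no test between groups. A gene was called past 2-fold or 4-fold at an absolute log2 ratio over 1 or 2, with a count of 0 set to 3 counts. Genes were kept where 10 or more of the cells compared had 5 or more counts. Correlations used log2(CPM + 1). TPM used union exon lengths and positions of GENCODE M21, with a length for 53292 genes. The genes named are the 10 members, other bundle genes past 2-fold, paralogues, label checks and the closest genes; the 4 P14_iOHCs highest in *Myo3a* were chosen with their values in view, and *B230206H07Rik* was named for its overlap. Members and lists were chosen with earlier results of these data known.

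The alternatives were TMM sizes (edgeR 4.0.16), poscounts size factors (DESeq2 1.42.0), totals without mitochondrial genes, TPM, means or medians over cells, either set of totals, removal of 9 cells whose total or detected genes lay past 3 median absolute deviations of their group, removal of 14 P14_iOHCs of high supporting-cell score, thinning to at most 15557333 counts and no filter. Scripts ran in R 4.3.3 and in Python 3.11.15 (scipy 1.17.1, numpy 2.4.6, matplotlib 3.10.9, pandas 2.3.3), with the seed 20220. The steps were tested on simulated data.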

Additional observations from a re-analysis of the deposited data

How the results depend on the processing

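In P14_iOHCs, *Myo3a* stayed past 4-fold lower under all 11 alternatives (the highest log2 ratio was -3.07) and *Xirp2* past 2-fold lower (-3.60 to -1.69); the lower set of totals left 1 member past 4-fold in place of 2, *Xirp2* being at -1.69. *Eps8* passed 2-fold in 10 of 11, the exception being the lower set at 0.48. At P30, 1 member, *Eps8*, passed 2-fold in place of 0 in each of 3 settings: higher with DESeq2 size factors (1.12), higher in the upper set of totals (1.09) and lower by the median over cells (-1.48); the causes were not tested. DESeq2 size factors moved the median of all genes at P30 from -0.01 to 0.26 and the share of called genes that were higher from 47.7% to 67.4%; relative to that shift the order of the members was the same by construction, with *Espn* at -0.47. TMM moved the P14 median from 0.09 to 0.15. Without the filter, which lets in genes of few counts, 39% of genes passed 2-fold at P30 in place of 20.9%. Members within 2-fold that changed sign in 1 or more settings were *Espn*, *Eps8l2* and *Grxcr1* in P14_iOHCs and *Fscn2*, *Pls1*, *Eps8*, *Xirp2* and *Grxcr1* at P30. No paired analysis was possible because no test was made and the cell numbers of the labels name no pairs. In the wild-type groups these numbers follow the sets of totals. *Eps8*, *Myo3b* and *Espnl* had no count in many cells, where a lower level cannot be told from 0 at this depth.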
